A study of Homo sapiens with 6 samples.

Results

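The 2-oxoglutarate dioxygenases are enzymes that hold an iron(II) ion and use molecular oxygen and 2-oxoglutarate, a metabolite of the citric acid cycle, to oxidise proteins, nucleic acids or small molecules. The members described here were 54 genes of the family other than ALKBH5, chosen by symbol through their Entrez gene identifiers: the AlkB homologues, the TET enzymes, the Jumonji C (JmjC) proteins, and the prolyl, lysyl and related hydroxylases. They were 54 of 18030 genes in the deposited tables. After the expression filter 53 of the members remained among 14168 tested genes. P4HA3, a catalytic subunit of collagen prolyl 4-hydroxylase, did not pass that filter, with 2, 1 and 3 estimated counts in the oeALKBH5 libraries and 1, 0 and 0 in the control libraries.

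Each reaction of the family splits 2-oxoglutarate into succinate and carbon dioxide while the other oxygen atom goes to the substrate. Because oxygen is a substrate, some members act as oxygen sensors: the EGLN enzymes mark the alpha subunits of hypoxia-inducible factor (HIF) for destruction when oxygen is present. Other members remove methyl groups from DNA, RNA or histone tails by oxidising them, and others modify newly made collagen so that its triple helix is stable and can be cross-linked.

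Messenger RNA was sequenced from Huh-7, a human hepatocellular carcinoma cell line, to ask how excess ALKBH5, the family member that removes N6-methyladenosine from RNA, changes gene expression. One group of 3 libraries came from cells carrying an ALKBH5 expression plasmid (oeALKBH5) and the other group of 3 came from control cells labelled WT. All 6 samples were kept in DMEM with 10% FBS, and all are labelled untreated. The plasmid was delivered by electroporation (3 pulses of 1250 V and 20 ms), and RNA was taken 60 h later. Control samples carry that same treatment text although the design text speaks of parental cells, so whether they were electroporated or given an empty plasmid is not stated. The titles number the libraries of each group as biological replicates. Whether these were separate cultures or transfections is not stated, so the p-values measure the spread between these libraries.

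Estimated counts summed to genes totalled 18607084 to 18826479 per oeALKBH5 library and 19265686 to 19378030 per control library. Levels are given as CPM (library-scaled counts, with TMM factors) or, where genes are compared with each other, as FPKM, which also divides by transcript length. ALKBH5 itself stood at 169, 133 and 110 CPM in the oeALKBH5 libraries and at 70.5, 74.2 and 75.5 CPM in the controls (1.87-fold, edgeR adjusted p = 0.0154). Of all tested genes, 42.8% passed an adjusted p of 0.05: 20.8% higher and 22% lower in oeALKBH5. With library size alone as the scaling, 4266 genes were higher and 2047 lower, against 2948 and 3114 with TMM, and the median log2 fold change of all genes went from 0.01 to 0.09. Of 9 hepatocyte markers all 9 were lower, with a summed level of 8164 to 8909 FPKM in oeALKBH5 and 12623 to 12897 FPKM in control libraries. Stellate and fibroblast markers summed to 3.97 to 4.36 FPKM and to 3.97 to 4.12 FPKM, and endothelial markers to 3.08 to 3.28 FPKM and to 4.62 to 5.52 FPKM. In each of those 2 marker lists 4 genes were under 1 FPKM in all 6 libraries. Macrophage and leukocyte markers summed to 86.96 to 101.69 FPKM in oeALKBH5 and 87.64 to 89.35 FPKM in control libraries, and cholangiocyte markers to 92.88 to 108.98 FPKM and 117.45 to 119.65 FPKM. All samples are of the Huh-7 line, so these sums describe its expression of marker genes and do not count cell types. As the samples are bulk, a change in all cells and a change in some of them cannot be told apart.

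More of the dioxygenase genes rose than fell. In oeALKBH5 19 of the 53 tested members were higher (35.8%, against 20.8% of all tested genes) and 4 were lower (7.55%, against 22%). The other 30 members did not pass the threshold. The median log2 fold change was 0.08 over the members and 0.01 over all tested genes. Most changes were small: the median size among the passing members was 0.35 on the log2 scale, against 0.30 among all passing genes, and P3H3 was the single passing member with a log2 fold change of at least 1 in size; 2.14% of all tested genes both passed and reached that size. On the authors' FPKM values, tested with limma on log2(FPKM + 1), 23 members were higher (43.4%, against 29.3% of genes tested on that scale) and 4 lower (7.55%, against 16.4%). Without control replicate 1 the lower count on that scale was 2. Both tests called 21 members in the same direction.

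**Figure D1:**
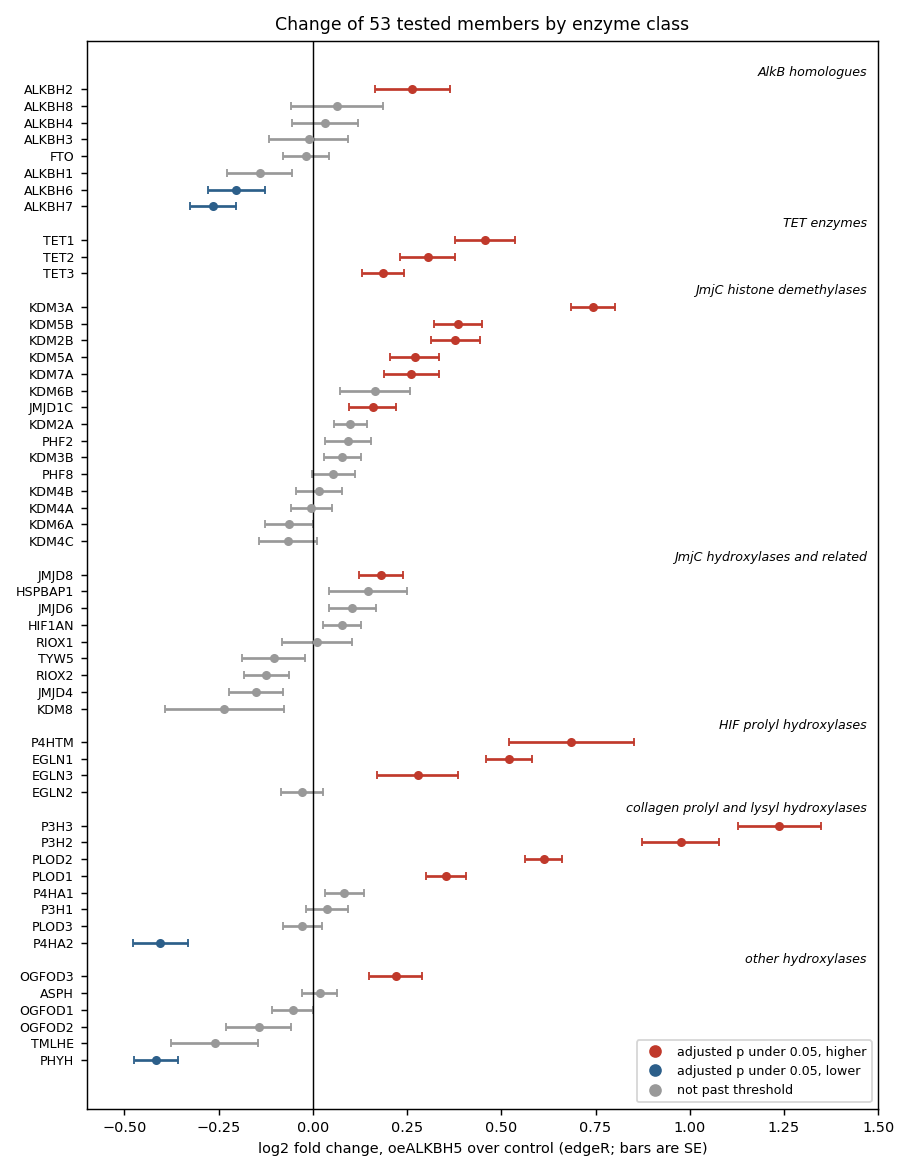
Log2 fold change of each tested member, oeALKBH5 over control, grouped by enzyme class and ordered by size within a class. Points are edgeR estimates, bars are standard errors, and colour gives the call at an adjusted p of 0.05; the collagen hydroxylases reach from P4HA2 at -0.41 to P3H3 at 1.24.

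Among the HIF prolyl hydroxylases, 3 of 4 genes rose and EGLN2 did not pass. EGLN1 (also called PHD2; chr1:231363751-231425044, minus strand, GRCh38 gene span) is the main oxygen sensor that hydroxylates HIF alpha in most cells. Its level was 84.1, 72.2 and 72.8 CPM in oeALKBH5 and 52.1, 52.8 and 54.8 CPM in control libraries. All oeALKBH5 values lay above all control values, and the log2 fold change was 0.52 (SE 0.0606, adjusted p = 1.12e-06). P4HTM, a prolyl hydroxylase held in the endoplasmic reticulum membrane that can also act on HIF alpha, had 3.64, 3.68 and 3.81 CPM against 2.31, 2.06 and 2.55 CPM. It was the least abundant of the 4 by FPKM, and rose by 0.69 on the log2 scale (SE 0.166, adjusted p = 0.0024) with no overlap.

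EGLN3 (PHD3), itself a known hypoxia-induced gene, gave 8.89, 9.86 and 10.3 CPM against 7.84, 7.29 and 8.81 CPM. Here the lowest oeALKBH5 value was just above the highest control value (log2 fold change 0.28, SE 0.108, adjusted p = 0.0428). The EGLN3 call was lost without oeALKBH5 replicate 2 (adjusted p = 0.104), oeALKBH5 replicate 3 (0.112), control replicate 1 (0.114) or control replicate 2 (0.185), with DESeq2 (0.159), and with no expression filter (0.0517). EGLN2 (PHD1) had 72.8, 64.9 and 71.7 CPM against 73.9, 68 and 71.8 CPM. Its groups overlapped (log2 fold change -0.03, SE 0.056, adjusted p = 0.706). By FPKM, EGLN2 was the highest of the 4 in control libraries at 33.8 ± 1.2 FPKM (SD, n = 3), followed by EGLN1 at 12.5 ± 0.276, EGLN3 at 2.92 ± 0.276 and P4HTM at 1.25 ± 0.15. No control values of neighbours in that order overlapped. HIF1AN, the asparaginyl hydroxylase that blocks HIF alpha from binding its coactivators, gave a log2 fold change of 0.08 (edgeR adjusted p = 0.227). Its CPM did not overlap (79.7, 81.7 and 82.4 in oeALKBH5 against 73.6, 78.8 and 78.8 in control libraries). HIF1AN passed with library size alone (0.16, adjusted p = 0.0176) but not on the FPKM scale (limma adjusted p = 0.084).

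Transcripts around HIF, the factor on which these hydroxylases act, were counted in 2 further lists. HIF protein and its activity were not measured. Of 12 tested HIF subunits and partners, 4 rose and 3 fell (median log2 fold change -0.05). HIF1A, the main alpha subunit, went from 368 ± 7.71 to 454 ± 48.8 CPM (log2 fold change 0.30, adjusted p = 0.00105) and CITED2, a hypoxia-induced gene whose protein competes with HIF alpha for its coactivator, rose by 0.36 (adjusted p = 1.00e-04). ELOB and ELOC, the elongin subunits that join the von Hippel-Lindau protein in the HIF ubiquitin ligase, fell by 0.48 and 0.20. Without control replicate 3 the list had 2 higher and 2 lower, and with library size alone 4 and 1. Of 24 tested hypoxia targets outside the family, 19 rose (median 0.47), among them the lipoprotein lipase inhibitor ANGPTL4 (1.01, SE 0.102) and the glycolytic enzyme HK2 (0.51, SE 0.0573). The remaining 5 did not pass. These targets are known to respond to HIF. The list was chosen with earlier results of these libraries known, so its count is not independent evidence of a direction. The hypoxia-induced members named next are examples and not a full list, so they give no tally of such members. The examples leave out KDM4B (log2 fold change 0.02, edgeR adjusted p = 0.857) and KDM4C (-0.07, adjusted p = 0.51), which did not pass. Leaving these 2 genes out does not mark them as genes that hypoxia does not induce.

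Since EGLN1, EGLN3, KDM3A, PLOD2, P4HA1 and P4HA2 are known hypoxia-induced genes, of which P4HA2 fell and P4HA1 did not pass (values below), the 250 bases before each RefSeq start site were searched for the core letters of the hypoxia response element, ACGTG or GCGTG, on both strands. A CACGTG palindrome holds ACGTG on each strand and so counts as 2 matches. RefSeq promoters (GRCh38.p14) were matched for 49 of the members. At least 1 match stood in 31 of these 49 (63.3%), in 55.7% of 11484 promoters of tested genes and in 43.1% of all 27305 promoters. ACGTG alone stood in 22.4% of member promoters, in 22.6% of promoters of tested genes and in 18.7% of all promoters. By call, 12 of 19 members that rose, 2 of 4 that fell and 17 of 26 that did not pass held a match. The windows below were picked after their values were seen, from the members whose windows overlap no GENCODE exon, to show 2 risen members with matches, a risen member without one and a member with matches that did not pass. Capitals mark the matches on either strand, and each sequence runs 5′ to 3′ on the gene's strand. The PLOD2 window is chr3:146161185-146161434 (minus strand) and lies inside the longer GENCODE span of PLOD2. TET3 is shown at chr2:73984660-73984909 (plus), P3H3 at chr12:6828157-6828406 (plus) and KDM4B at chr19:4968863-4969112 (plus), all upstream of their GENCODE spans.
PLOD2: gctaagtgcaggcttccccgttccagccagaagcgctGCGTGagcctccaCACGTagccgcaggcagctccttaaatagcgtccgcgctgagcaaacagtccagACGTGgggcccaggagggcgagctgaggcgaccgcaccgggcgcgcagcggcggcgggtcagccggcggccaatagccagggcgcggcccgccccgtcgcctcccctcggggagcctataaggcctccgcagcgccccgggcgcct
TET3: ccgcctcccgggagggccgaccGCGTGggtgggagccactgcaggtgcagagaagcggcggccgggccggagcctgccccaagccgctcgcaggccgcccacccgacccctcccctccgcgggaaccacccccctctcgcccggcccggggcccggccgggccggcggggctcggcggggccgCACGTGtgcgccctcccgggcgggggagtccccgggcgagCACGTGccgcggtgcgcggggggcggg
P3H3: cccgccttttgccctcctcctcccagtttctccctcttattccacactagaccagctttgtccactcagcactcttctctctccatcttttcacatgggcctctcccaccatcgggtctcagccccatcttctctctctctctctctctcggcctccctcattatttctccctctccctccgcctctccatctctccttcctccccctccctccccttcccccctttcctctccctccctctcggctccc
KDM4B: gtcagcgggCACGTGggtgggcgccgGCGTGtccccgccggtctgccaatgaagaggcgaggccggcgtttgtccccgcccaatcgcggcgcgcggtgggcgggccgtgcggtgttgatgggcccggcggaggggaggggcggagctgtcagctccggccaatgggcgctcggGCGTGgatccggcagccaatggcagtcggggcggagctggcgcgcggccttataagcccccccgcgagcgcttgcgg
PLOD2 holds 3 matches, TET3 5, KDM4B 4 and P3H3 0. P3H3 had the largest rise of all members. KDM4B had overlapping groups (82.5, 68.3 and 74 CPM in oeALKBH5, 75.5, 72 and 75 CPM in control libraries), with a log2 fold change of 0.02 (edgeR adjusted p = 0.857). As these windows were picked, they do not show how matches relate to changes, which was not tested. A match describes letters in a window and is not a bound site.

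The enzymes that modify collagen in the endoplasmic reticulum included the largest rises of all tested members, P3H3 and P3H2, and also a member that fell. Of 8 tested genes 4 rose, P4HA2 fell and 3 did not pass (median log2 fold change 0.22). P3H3 (chr12:6828410-6839851, plus strand) belongs to the prolyl 3-hydroxylase group and is known as a partner of the lysyl hydroxylase PLOD1. It stood at 10.6, 10.8 and 10.3 CPM in oeALKBH5 and at 4.46, 4.75 and 4.19 CPM in control libraries. The groups were far apart relative to their spread, with a 2.36-fold difference (log2 fold change 1.24, SE 0.11, adjusted p = 3.03e-08). P3H2 (chr3:189956728-190122437, minus strand), the prolyl 3-hydroxylase with a preference for basement membrane collagen IV, gave 31.6, 25.8 and 23 CPM against 14.2, 13.7 and 13 CPM. The oeALKBH5 libraries were spread over a wider range than the controls but none came near them (1.97-fold, log2 fold change 0.98, SE 0.102, adjusted p = 1.65e-06). P3H1, the third gene of that group, did not pass (0.04, adjusted p = 0.609).

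PLOD2 (chr3:146069440-146163653, minus strand), the lysyl hydroxylase of collagen telopeptides, rose from 164, 175 and 174 CPM in control to 276, 256 and 252 CPM in oeALKBH5 libraries. No values overlapped (1.53-fold, log2 fold change 0.61, SE 0.049, adjusted p = 6.66e-09). PLOD1, which hydroxylates lysines in the collagen helix, had 204, 176 and 183 CPM against 153, 143 and 145 CPM. It too was higher in every oeALKBH5 library, by 0.35 on the log2 scale (SE 0.054, adjusted p = 3.05e-05). PLOD3, which also carries glycosyltransferase activity, overlapped between groups (-0.03, adjusted p = 0.691). P4HA1 and P4HA2 are alternative catalytic subunits of collagen prolyl 4-hydroxylase, both known as hypoxia-induced genes. P4HA2 (chr5:132191838-132295315, minus strand) had 37.9, 29.6 and 32.8 CPM in oeALKBH5 and 45.2, 43.9 and 43.8 CPM in control libraries. All oeALKBH5 libraries were below all controls (1.32-fold lower, or -0.41 on the log2 scale, SE 0.0729, adjusted p = 2.08e-04). P4HA1 gave 0.08 (SE 0.052, adjusted p = 0.205), passing with library size alone (0.16, adjusted p = 0.0176) and on the FPKM scale (adjusted p = 0.0347). P4HA1 was the more abundant subunit in control libraries, at 42 ± 1.45 FPKM against 9.29 ± 0.141 FPKM for P4HA2 (SD, n = 3).

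The substrates and partners of these enzymes also moved in both directions. Of 16 tested collagen chain genes 9 rose and 2 fell (median 0.41). COL4A5, a basement membrane chain, rose by 0.73 (SE 0.0701) and COL1A2, a chain of fibrillar collagen I, by 0.92 (SE 0.103). The 2 that fell were COL2A1, the chain of the collagen II of cartilage, and COL6A1 (-0.28). COL2A1 had 2444, 2279 and 2304 CPM in control libraries and 655, 739 and 730 CPM in oeALKBH5 libraries (log2 fold change -1.73, SE 0.0515, adjusted p = 3.09e-15). The collagen list summed to 388.67 to 398.38 FPKM in oeALKBH5 and to 647.28 to 678.76 FPKM in control libraries, so the summed level was lower while most of the chains that passed were higher. Of 13 collagen folding and cross-linking partners 7 rose and 3 fell (median 0.14). LOXL2, a lysyl oxidase that works on lysines outside the cell, rose from 5.03 ± 0.749 to 15.1 ± 1.54 CPM (log2 fold change 1.58, SE 0.117), and FKBP10, a chaperone known to be needed for telopeptide lysyl hydroxylation, by 0.61. PPIB, the prolyl isomerase in the P3H1 complex, fell by 0.40, and P4HB, the protein disulfide isomerase that is the beta subunit of the prolyl 4-hydroxylases, fell by 0.19. With library size alone the list had 8 higher and 2 lower.

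**Figure D2:**
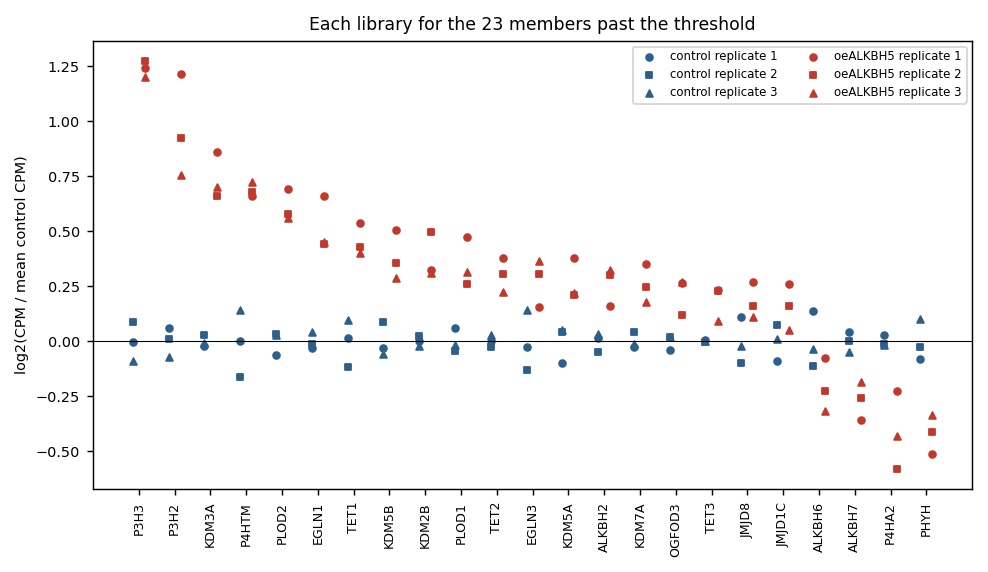
Each library's level of the 23 members past the threshold, as log2 of its CPM over the mean control CPM (vertical axis), with members in order of log2 fold change and 1 symbol per replicate. Most risen members have their 3 oeALKBH5 points above all control points; JMJD8, JMJD1C and ALKBH6 overlap.

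Of the 15 JmjC histone demethylases, 6 rose and 9 did not pass (median 0.10). The smallest p was that of KDM3A (chr2:86440647-86492716, plus strand), which removes mono- and dimethyl marks from lysine 9 of histone H3. It stood at 85.6, 74.5 and 76.8 CPM in oeALKBH5 and at 46.5, 48.1 and 46.9 CPM in control libraries. Every oeALKBH5 value was well above the narrow control range (1.67-fold, log2 fold change 0.74, SE 0.0581, adjusted p = 4.66e-09). KDM3B, its close relative with the same histone target, overlapped between groups in CPM (0.08, SE 0.0479, adjusted p = 0.197). It passed with library size alone (0.16, adjusted p = 0.0127) and on the FPKM scale, where its groups did not overlap (adjusted p = 0.0449).

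KDM5B, a demethylase of lysine 4 of histone H3, had 58.1, 52.3 and 49.9 CPM against 40, 43.4 and 39.3 CPM. The groups did not overlap (log2 fold change 0.39, SE 0.0641, adjusted p = 7.46e-05). KDM2B, which recruits a variant Polycomb complex to CpG islands, had 37.8, 42.6 and 37.4 CPM against 30.2, 30.7 and 29.7 CPM, again with no overlap (0.38, SE 0.0648, adjusted p = 1.03e-04). KDM5A, the closest relative of KDM5B here, rose by 0.27 (adjusted p = 0.00247), and KDM7A, which acts on lysines 9 and 27 of histone H3, by 0.26 (adjusted p = 0.00699). JMJD1C rose by 0.16 with overlapping groups (adjusted p = 0.0444). That call was lost without oeALKBH5 replicate 1 (adjusted p = 0.135), oeALKBH5 replicate 2 (0.0982), control replicate 1 (0.212) or control replicate 3 (0.0969), and with DESeq2 (0.101). The KDM4 genes, which act on lysines 9 and 36, and KDM6A and KDM6B, which act on lysine 27, did not pass. Their log2 fold changes ran from -0.07 for KDM4C to 0.16 for KDM6B. Of these, KDM6A was called at -0.13 (adjusted p = 0.0481) without oeALKBH5 replicate 1, and KDM6B at 0.16 (adjusted p = 0.0104) with the replicate number as a block. Of 26 lysine methyltransferases, which write histone methylation, 14 rose and 12 did not pass (median 0.17). SETD1B was at 0.60 (SE 0.0635) and SETD7 at 0.39 (SE 0.048). Among all tested genes 20.8% were higher. The list's median transcript length was 6295 nt, and 30.5% of all genes in the longest length quartile (from 5229 nt) were higher. The part of length in these rises was not tested. Both flavin-dependent histone demethylases, which do not use 2-oxoglutarate, did not pass.

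The 3 TET genes encode the enzymes that oxidise 5-methylcytosine in DNA, and all 3 rose. TET1 (chr10:68560656-68694482, plus strand) had 21.6, 20 and 19.7 CPM in oeALKBH5 and 15, 13.7 and 15.9 CPM in control libraries. There was no overlap (log2 fold change 0.46, SE 0.0802, adjusted p = 1.32e-04). TET2 gave 23.9, 22.7 and 21.5 CPM against 18.4, 18.1 and 18.7 CPM (0.30, SE 0.0724, adjusted p = 0.00205), and its groups were also apart. TET3 gave 53.7, 53.5 and 48.6 CPM against 45.8, 45.5 and 45.7 CPM (0.19, SE 0.0567, adjusted p = 0.0119). The TET3 call was lost without oeALKBH5 replicate 2 (0.17, adjusted p = 0.0561), and TET3 did not pass on the FPKM scale (adjusted p = 0.0609). By FPKM the 3 were low: TET3 at 4.17 ± 0.208, TET2 at 1.91 ± 0.0624 and TET1 at 1.24 ± 0.0458 in control libraries (SD, n = 3). The TET1 mean was the lowest of all tested members, but its control values overlapped those of P4HTM (1.26, 1.09 and 1.39 FPKM). Of 6 other genes of DNA methylation, 3 rose and 2 fell. The maintenance methyltransferase DNMT1 (0.24) and its recruiter UHRF1 (0.41) rose, while the de novo methyltransferase DNMT3B (-0.22) and TDG (-0.14), the glycosylase that removes TET products from DNA, fell. With library size alone the lower count was 0 (adjusted p = 0.0881 for DNMT3B and 0.389 for TDG). The TDG call was also lost with DESeq2 (adjusted p = 0.0758), with upper quartile scaling (0.0777) and without oeALKBH5 replicate 1 (0.0537), oeALKBH5 replicate 2 (0.0885), control replicate 2 (0.137) or control replicate 3 (0.191), and that of DNMT3B without control replicate 1 (0.0517).

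Among the 8 AlkB homologues, the closest relatives of the overexpressed gene, 1 rose, 2 fell and 5 did not pass (median -0.02). FTO, the other RNA demethylase of N6-methyladenosine, had 31.7, 33 and 33.8 CPM in oeALKBH5 and 32.5, 33.9 and 33.3 CPM in control libraries. Those ranges overlapped almost completely (log2 fold change -0.02, SE 0.0608, adjusted p = 0.824). ALKBH7, a mitochondrial member linked to programmed necrosis, had 32.5, 34.9 and 36.7 CPM against 43, 41.8 and 40.3 CPM. All oeALKBH5 values were lower (-0.26, SE 0.0617, adjusted p = 0.00175). ALKBH2, a DNA repair enzyme for alkylated bases, had 9.2, 10.2 and 10.3 CPM against 8.33, 7.97 and 8.44 CPM, without overlap (0.26, SE 0.1, adjusted p = 0.0391). ALKBH6, whose role is less clear, had 32, 28.8 and 27 CPM against 37, 31.1 and 32.9 CPM, with overlap (-0.20, SE 0.0757, adjusted p = 0.0364).

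The calls of ALKBH2 and ALKBH6 were lost when most of the single libraries were left out. That of ALKBH2 was lost without any 1 of the libraries other than oeALKBH5 replicate 1 (adjusted p = 0.0764 to 0.126), with DESeq2 (0.165) and with no filter (0.0561). ALKBH6 did not pass when oeALKBH5 replicate 2 (adjusted p = 0.115), oeALKBH5 replicate 3 (0.127), control replicate 1 (0.223) or control replicate 3 (0.06) was left out, with upper quartile scaling (0.054), library size alone (0.199) and DESeq2 (0.0805), and it did not pass on the FPKM scale (adjusted p = 0.17). The members that did not pass were ALKBH1 (12.2, 12.2 and 12.7 CPM against 14.5, 13.3 and 13.2 CPM; -0.14), ALKBH3, also a repair enzyme (8.47, 9.65 and 11 CPM against 9.56, 9.77 and 10 CPM; -0.01), ALKBH4 (16.1, 14.7 and 17.9 CPM against 16.5, 16.6 and 14.5 CPM; 0.03) and ALKBH8, a tRNA-modifying enzyme (6.39, 6.23 and 6.89 CPM against 5.7, 5.86 and 7.11 CPM; 0.06). Of these only ALKBH1 had groups that did not overlap, with the oeALKBH5 values lower (adjusted p = 0.191). By control FPKM the order was ALKBH7 (44.2 ± 1.19), ALKBH6 (35 ± 2.83), ALKBH2 (7.95 ± 0.506), FTO (7.91 ± 0.274), ALKBH4 (7.6 ± 0.574), ALKBH3 (6.37 ± 0.172), ALKBH1 (5.21 ± 0.252) and ALKBH8 (1.57 ± 0.195), as mean ± SD over 3 libraries. Values of ALKBH2, FTO and ALKBH4 overlapped each other, and those of the other neighbours did not.

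The 9 JmjC hydroxylases and related proteins had JMJD8 higher and 8 not past the threshold (median 0.01). JMJD8, a JmjC protein of the endoplasmic reticulum, had 88.5, 82.1 and 79.1 CPM against 79.1, 68.6 and 72.4 CPM. The lowest oeALKBH5 library and the highest control library met (log2 fold change 0.18, SE 0.0587, adjusted p = 0.0169), and it no longer passed when control replicate 2 (adjusted p = 0.127) or control replicate 3 (0.0668) was left out. JMJD6, RIOX1, RIOX2, JMJD4, KDM8, HSPBAP1 and TYW5 ran from -0.23 for KDM8 to 0.15 for HSPBAP1. JMJD4 passed without oeALKBH5 replicate 3 (-0.20, adjusted p = 0.0311). JMJD6, which acts on lysines of splicing factors, passed on the FPKM scale (adjusted p = 0.00729) and its CPM did not overlap (31.4, 30.3 and 29.8 against 29.2, 28.2 and 27.8).

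Of the 6 remaining hydroxylases, PHYH fell, OGFOD3 rose and 4 did not pass. PHYH (chr10:13277796-13302412, minus strand), the peroxisomal phytanoyl-CoA hydroxylase that starts alpha-oxidation of branched fatty acids, had 54.9, 58.9 and 62.1 CPM in oeALKBH5 and 74, 76.9 and 83.9 CPM in control libraries. The groups were separate (1.33-fold lower, or -0.42 on the log2 scale, SE 0.0592, adjusted p = 1.31e-05). PHYH is abundant in liver, and its fall stood beside the lower levels of all 9 hepatocyte markers; their part in it was not tested. OGFOD3 rose by 0.22 (adjusted p = 0.0156), but not with DESeq2 (adjusted p = 0.0664) or when control replicate 1 was left out (0.0665). TMLHE, the first enzyme of carnitine synthesis, had 6.39, 5.97 and 7.36 CPM against 8.33, 7.87 and 7.43 CPM. All its oeALKBH5 values were lower, by a margin that did not pass (-0.26, SE 0.115, adjusted p = 0.0741); it passed without oeALKBH5 replicate 3 (-0.35, adjusted p = 0.027) and on the FPKM scale (adjusted p = 0.0383). OGFOD1, which hydroxylates a proline of ribosomal protein uS12, OGFOD2 and ASPH, which hydroxylates EGF-like domains, did not pass, at -0.05, -0.14 and 0.02. On the FPKM scale ASPH was higher without overlap (adjusted p = 0.0389). Of 10 tested family genes outside the member list 3 rose and 7 did not pass (median 0.09). PHYHD1, a relative of PHYH, was at 0.86 (SE 0.189) and HR, a histone demethylase known for its role in hair growth, at 0.70 (SE 0.222), both under 5 CPM. Without control replicate 1 or control replicate 2 the list's count was 1, and HR lost its call in both (adjusted p = 0.0937 and 0.0669) and with DESeq2 (0.0823).

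**Figure D3:**
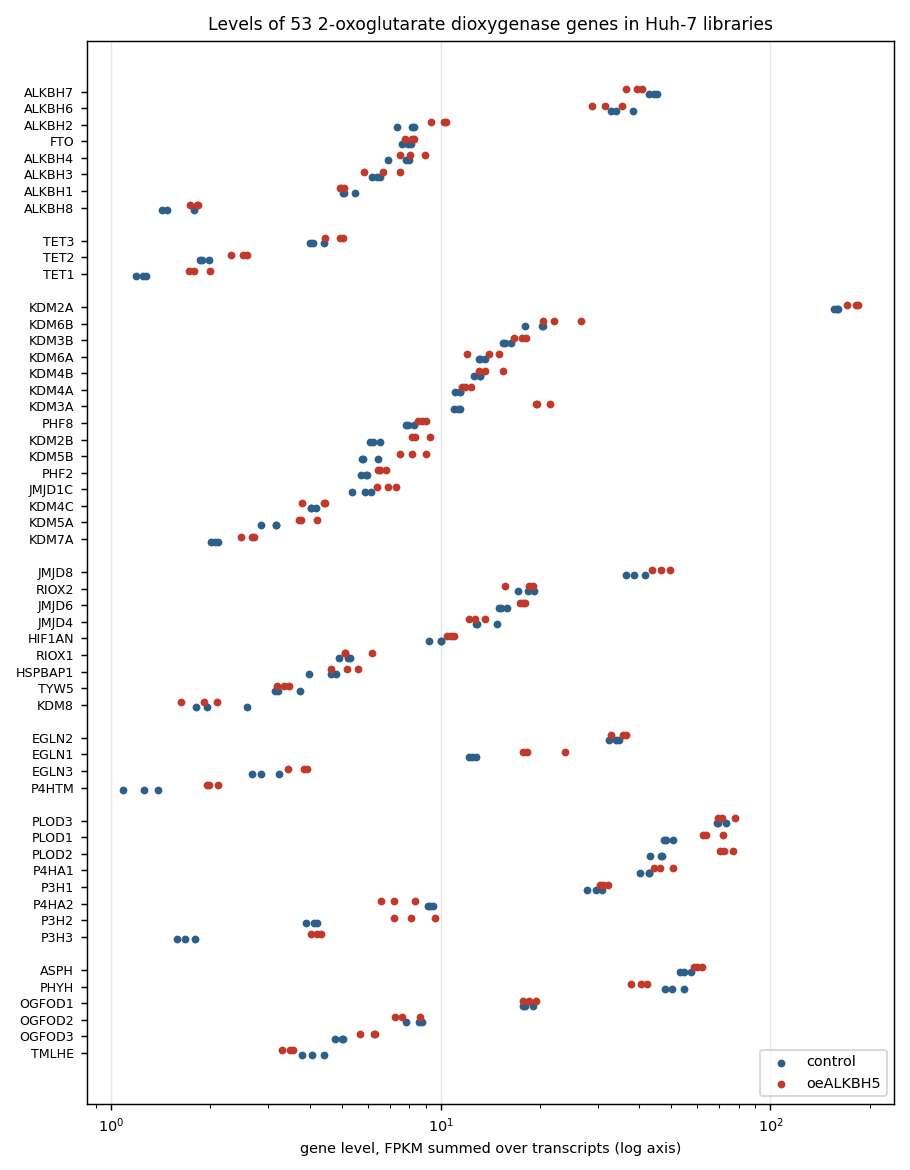
Level of each tested member in every library, in FPKM summed over its transcripts on a log axis, by class and ordered by control mean. Blue points are the 3 control and red points the 3 oeALKBH5 libraries. KDM2A lies to the right of all others and TET1 has the lowest control mean, with values that overlap those of P4HTM.

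The median control level of the tested members was 8.02 FPKM, against 8.10 over all tested genes. KDM2A was the most abundant at 158 ± 2.2 FPKM (SD, n = 3), rank 502 of all genes, followed by PLOD3 (70.4 ± 2.51), ASPH (55.1 ± 2.09), PHYH (50.8 ± 3.42), PLOD1 (48.8 ± 1.52), PLOD2 (45.6 ± 2.15) and ALKBH7 (44.2 ± 1.19). Control values of ASPH and PHYH overlapped, as did those of PHYH and PLOD1 and those of PLOD2 and ALKBH7. In oeALKBH5 libraries PLOD2 reached 73.1 ± 3.53 FPKM, level with PLOD3 at 73 ± 4.63 FPKM.

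KDM2A, a demethylase of lysine 36 of histone H3 that binds CpG islands through a zinc finger, did not pass in the count test. Its CPM values were 1069, 1032 and 999.7 in oeALKBH5 and 980.2, 966.6 and 948.3 in control libraries. They did not overlap (0.10, SE 0.0436, adjusted p = 0.0732), and it passed on the FPKM scale (adjusted p = 0.00664) and under 5 of the 14 alternative settings of the count test, with adjusted p from 0.00159 with library size alone to 0.0465 with DESeq2. NM_001256405.2, which in GRCh38 runs from chr11:67240047-67256373 on the plus strand, held 48.6% of KDM2A counts in control and 48.8% in oeALKBH5 libraries on average. Its coding sequence starts at position 67240208 and has 723 codons over 10 coding exons. The full-length NM_012308.3 (chr11:67119687-67258087) has 1162 codons over 20 coding exons, of which 11 lie upstream of that start, and held 11.2% and 13.2%. A short form of KDM2A is known to lack the JmjC domain while it keeps the zinc finger. The division of reads among transcripts that share exons is an estimate.

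Estimated transcript shares within the members showed about as many separations between groups as those of other genes. Of 245 member transcripts in 46 genes, 35 (14.3%) had shares that did not overlap between groups, against 12.3% of 44932 transcripts of all genes. Of these, 20 were higher and 15 lower in oeALKBH5, in 19 genes. With a mean count of at least 50 per transcript it was 20 of 135, against 14.05% of 22263 transcripts of all genes. The share of a KDM4B transcript, XM_011527814.2, went from 20.1%, 19.5% and 17.8% in control to 32.3%, 39.5% and 32.7% in oeALKBH5 libraries. That shift was well outside the spread, although the gene's total did not pass. For KDM6B the minor transcript XM_005256550.4 held 8.10%, 6.64% and 7.20% in control and 3.15%, 3.35% and 3.14% in oeALKBH5 libraries, with no overlap. The main EGLN1 transcript, NM_022051.3, held 97.9%, 97.0% and 100% of EGLN1 counts in control and 85.6%, 94.3% and 97.0% in oeALKBH5 libraries; its highest oeALKBH5 value was just below its lowest control value. These examples were chosen after their values were seen.

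More of the genes that supply or remove the family's cofactors and products fell than rose. Of 22 genes for making or using 2-oxoglutarate and for handling ascorbate and iron, 11 fell and 1 rose (median -0.17). Among all tested genes 22% were lower and 20.8% higher. IDH1, the cytosolic isocitrate dehydrogenase that makes 2-oxoglutarate, went from 570 ± 11.2 to 338 ± 27.8 CPM (SD, n = 3; log2 fold change -0.75, SE 0.0527, adjusted p = 1.08e-09). GLUD1, the mitochondrial glutamate dehydrogenase that makes it from glutamate, fell by 0.51 (SE 0.0496). SLC23A2, a transporter of ascorbate, rose by 0.13 (adjusted p = 0.0391), a call that was lost in each leave-out but that of oeALKBH5 replicate 3 (adjusted p = 0.0723 to 0.129), with DESeq2 (0.0751) and with no filter (0.0546). The count of risen genes in this list was 0 without oeALKBH5 replicate 2, control replicate 1 or control replicate 3. With library size alone the list had 3 higher and 8 lower, and on the FPKM scale 4 higher and 8 lower. Of 7 genes for removing succinate and fumarate, which inhibit the family when they build up, 6 fell and 1 did not pass (median -0.30). Their median transcript length was 1797 nt, and 34.4% of all genes in the shortest length quartile (up to 2170 nt) were lower. The part of length in these falls was not tested. SDHB and SDHD, subunits of succinate dehydrogenase, fell by 0.50 (SE 0.0538) and 0.35 (SE 0.0582). These are transcript levels: no metabolite was measured.

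**Figure D4:**
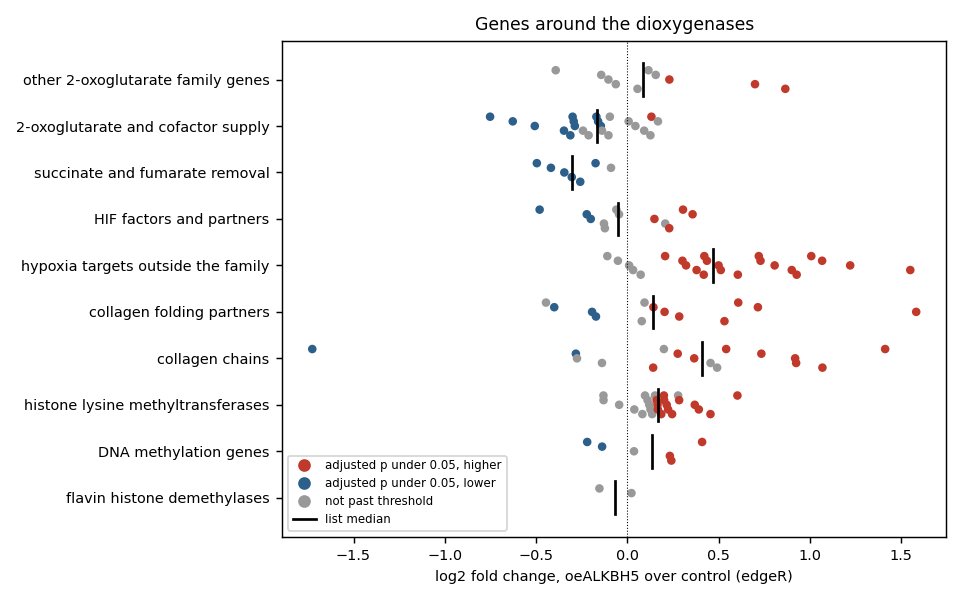
Log2 fold change, oeALKBH5 over control, of the tested genes in 10 lists around the dioxygenases. Each point is a gene, coloured by its call at an adjusted p of 0.05, and the bar is the list's median; the hypoxia targets have a median of 0.47 and the succinate and fumarate genes one of -0.30.

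Transcript length moved with the direction of change in these libraries. Over 13533 tested genes with a GENCODE length, the median log2 fold change rose from -0.10 in the shortest quartile through -0.03 and 0.03 to 0.09 in the longest, and the share of genes called higher rose from 12.2% through 17.7% and 24.0% to 30.5%. The members were longer than other genes, with a median of 4287 nt against 3392 nt, and 20 of the 53 were in the longest quartile. In that quartile 8 of the 20 members were higher, with a median of 0.10; in the shortest, 2 of 8 were higher and 3 lower, with a median of 0.01. Of all genes, 34.4% were called lower in the shortest quartile and 12.8% in the longest. The TET genes (median 10166 nt) and the JmjC histone demethylases (median 6062 nt) were among the longest. P3H3 (2632 nt) lay in quartile 2 (2171 to 3392 nt), and P3H2 (3509 nt) and PLOD2 (3732 nt) in quartile 3 (3393 to 5227 nt). The part of length in the members' changes was not tested.

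The oeALKBH5 libraries also differed among themselves. Replicate 1 had the most ALKBH5 and was the highest of its group for 13 of the 19 risen members, which compares with 54.3% of all genes that were higher. P3H2 (31.6 CPM against 25.8 and 23) and EGLN1 (84.1 CPM against 72.2 and 72.8) were of this kind, while P3H3, P4HTM, KDM2B, EGLN3, ALKBH2 and OGFOD3 were not. Of the 19 risen members 17 had CPM values that did not overlap between groups, as had 3 of the 4 that fell. These members were called from the same libraries, so their separation is not further evidence. Counting all tested members, 21 lay wholly above the controls (25.8% of all tested genes did) and 5 wholly below (27% did).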

How the data were processed

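The authors deposited estimated counts and FPKM values (fragments relative to the length of the transcript and the depth of the library) for 80668 RefSeq transcripts in each of the 6 libraries. The submitters' processing notes name the build GRCh38.p13 and the tools RSEM 1.2.8, Bowtie2 2.2.5 and HISAT2 2.1.0. What each tool did, any filters and the use of strand were not given in the sources used here, so reads of overlapping genes cannot be told apart.

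Both measures were added up per Entrez gene, and summed estimated counts were rounded to whole numbers. Symbols were matched for 17881 of 18030 genes, and the other 149 genes held 0.0264% of the counts. Groups came from the sample labels. Every pair of replicates differed by more than counting noise, and all 6 libraries were kept.

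The main test was edgeR 4.0.16 in R 4.3.3: TMM scaling, expression filter at a minimum count of 10, robust quasi-likelihood fit with group alone, two-sided, Benjamini-Hochberg adjustment over all 14168 tested genes, threshold 0.05. Standard errors were the size of the log2 fold change divided by the root of its F statistic. The deposited FPKM values were tested as log2(FPKM + 1) with limma 3.58.1 for genes of at least 1 FPKM in 3 libraries. On this scale the change of a gene with low values is understated. FPKM values carry no scaling for composition, and the median log2 difference of all genes on that scale was 0.06. Transcript shares, each a percent of its gene's estimated count, used transcripts with a mean count of at least 10 in genes with at least 2 of them, and had no test. Gene spans and lengths came from GENCODE release 29 on GRCh38, and promoters from RefSeq (GRCh38.p14). Scripts were tested on simulated data. Figures used matplotlib 3.10.9.

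Full values were given for the 10 passing members with the largest rises, for those that fell and for the smallest p of each class, and up to 2 genes each way were named from the other lists. Members, lists and this rule were chosen with earlier results of these data known. Alternatives were scaling by upper quartile, by DESeq2 size factors or by library size alone, a CPM filter at 1 or no filter, DESeq2 1.42.0, limma-voom, a replicate block, an adjusted p of 0.01, and leaving out each library. On the FPKM scale a pseudocount of 0.1, no filter, the block and each library left out were tried.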

Additional observations from a re-analysis of the deposited data

How the results depend on the processing

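Of the 23 members past the threshold 16 kept their call in all 14 alternatives and 0 changed direction; the other 7 (ALKBH2, ALKBH6, EGLN3, JMJD1C, JMJD8, OGFOD3 and TET3) lost it in at least 1. Members were higher in 13 (adjusted p of 0.01) to 25 cases (library size alone) and lower in 3 to 5, and in 15 to 18 and 3 to 5 with 1 library left out. On the FPKM scale the lower count of 4 ran from 2 to 4 with 1 library left out. With library size alone 2047 of all genes were lower. Transcript shares without overlap numbered 20 with a mean count of 50 (14.05% of all transcripts at that setting) and 53 to 59 with 1 library left out (21.7% to 22.4% of all transcripts). Log2 fold changes of 12 members outside the threshold changed sign, and no value of changed sign passed. With upper quartile scaling these were ALKBH3 (0.0077) and KDM4A (0.015). With library size alone they were ALKBH3 (0.067), FTO (0.060), KDM4A (0.075), KDM4C (0.013), KDM6A (0.017), EGLN2 (0.050), PLOD3 (0.052) and OGFOD1 (0.026). With 1 library left out the ranges were -0.109 to 0.080 for ALKBH3, -0.043 to 0.101 for ALKBH4, -0.038 to 0.0077 for FTO, -0.029 to 0.028 for KDM4A, -0.057 to 0.082 for KDM4B, -0.131 to 0.018 for KDM6A, -0.081 to 0.064 for RIOX1, -0.063 to 0.024 for EGLN2, -0.011 to 0.084 for P3H1 and -0.078 to 0.0057 for PLOD3. The cause was not tested.

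Libraries of the same number did not deviate together (correlations from -0.019 to 0.016). Whether the numbers mark samples prepared together is not stated, and low correlations over so few libraries cannot exclude it. With the replicate block 21 members were higher and 5 lower, and 6469 of all genes passed against 6062 without the block. With 3 libraries a group, standard errors of the members that did not pass ran from 0.0436 to 0.159 on the log2 scale. Changes well above their standard error could still fail to pass, as for KDM2A (0.10, SE 0.0436) and TMLHE (-0.26, SE 0.115). Low genes have the widest errors, such as KDM8 (SE 0.159) and P4HTM (SE 0.166), of which P4HTM passed.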
